A study of Mus musculus with 58 samples.

Results

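Kidney RNA was compared between mice given a low dose of trichloroethylene (TCE), a chlorinated solvent, and mice given the vehicle alone. The libraries were chosen by their labels and not by any measured value. They are 9 of 58 in the series, of which 29 are kidney. The vehicle group (3 libraries), the group at 24 mg/kg or about 0.22 mmol/kg TCE (3 libraries) and the group at 80 mg/kg or about 0.67 mmol/kg TCE (3 libraries) enter the comparison, with both doses pooled as 6 low dose libraries. Every animal was a male mouse of 5 to 6 weeks, named B6C3F1/J in the protocol and C57BL/6 in another label, and received 1 intragastric dose at 5 mL/kg. The vehicle was saline with 5% of the surfactant Alkamuls EL-620. The labels name no transgene or engineered allele in any group, and the sources used here name no sampling time. Each library is one sample of whole kidney RNA, so fewer cells of a type and less RNA per cell cannot be told apart. Nothing in the labels ties libraries to separate animals or explains the replicate numbers, so p-values reflect only library to library spread, which may be technical.

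TCE reaches the kidney both as the parent solvent and as metabolites made in the liver. Oxidation by cytochrome P450 enzymes gives acid and alcohol products, some of which activate the lipid sensor PPARα. Conjugation with glutathione gives a cysteine conjugate, formed by γ-glutamyl transferase and dipeptidases on the brush border of the proximal tubule, which can be acetylated and excreted as a mercapturate or cleaved to a reactive product. The proximal tubule, which reabsorbs glucose, phosphate and amino acids and secretes organic acids, is the part of the nephron known for TCE toxicity.

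Library totals ran from 23462407 to 30197300 counts over the 9 libraries, where 1 read was worth 0.0319 to 0.0438 CPM (counts scaled to a common library size). The markers of the S1 and S2 segments of the proximal tubule summed to between 19200 and 23000 CPM in each library, so the defining genes of the labelled tissue were present throughout. Some libraries stood apart from their own groups. Library 3 at 0.67 mmol/kg held RNA of adrenal genes, from a gland that lies on the upper pole of the kidney. Cyp11a1, the enzyme that starts steroid synthesis, was at 979 CPM there and at 0 to 0.113 CPM in the other 8 libraries. Star, which carries cholesterol into mitochondria, was at 1280 CPM against 3.38 to 4.62 CPM, Cyp21a1, the steroid 21-hydroxylase, at 1250 against at most 0.182 CPM, and Cyp11b1, the 11β-hydroxylase, at 566 against at most 0.0375 CPM. The catecholamine enzymes of the adrenal medulla followed, with Th at 106 CPM against 0 in the other 8 libraries and Dbh at 87.6 CPM against at most 0.0403 CPM. The 19 cortex markers together summed to 6640 CPM in that library and to between 632 and 702 CPM in the other 8, and the 17 medulla markers to 2000 CPM against 310 to 425 CPM. No fold change is given for the genes that were at or near 0 in the vehicle libraries. White fat markers were also highest in that library, at 615 CPM against 41.1 to 266 CPM in the other 8. Vehicle library 2 held the most RNA of liver genes. The liver protein albumin (Alb) was at 83 CPM there, at 7.06 and 21.6 CPM in the other vehicle libraries and at 9.12 to 31.2 CPM in the low dose libraries. Vehicle library 1 had the lowest sum of podocyte markers, 140 CPM, where the other 8 libraries had 267 to 425 CPM.

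**Figure D1:**
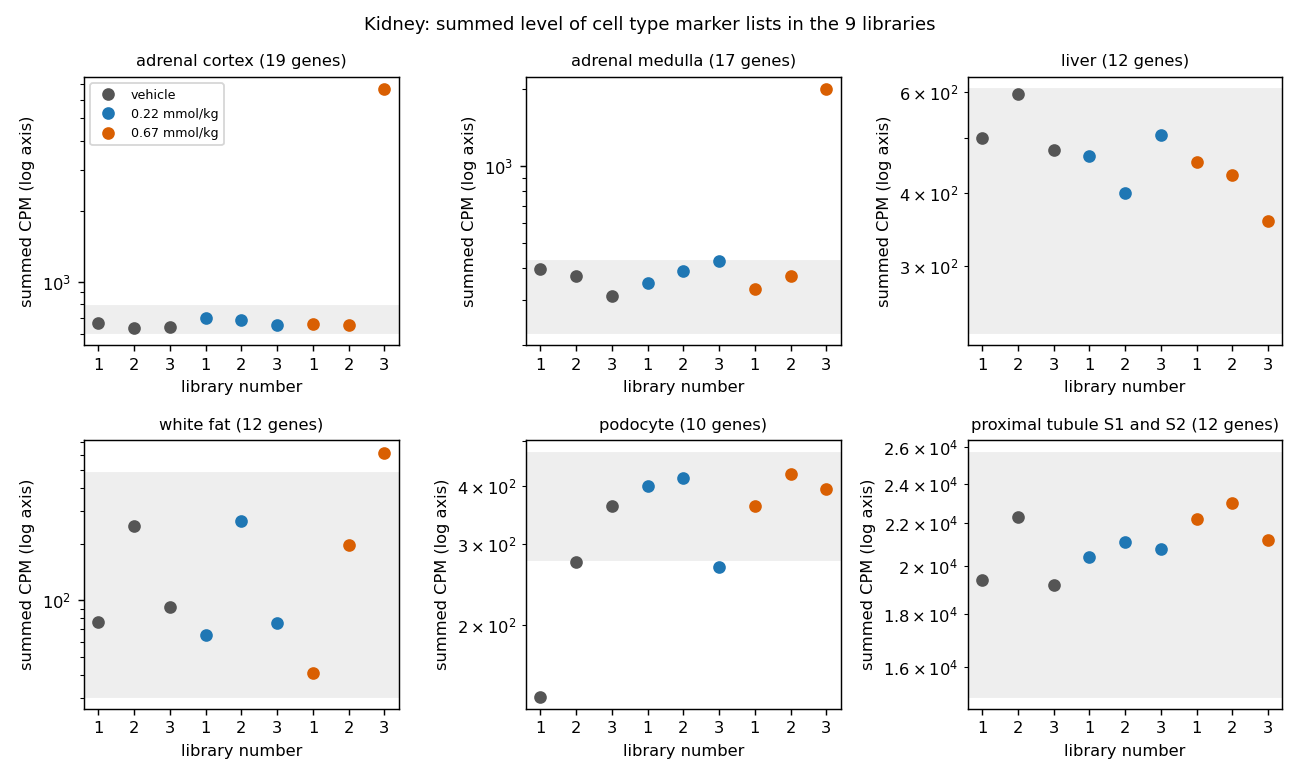
Summed CPM (log axis) of 6 lists of cell type markers in each of the 9 libraries, numbered 1 to 3 within vehicle, 0.22 and 0.67 mmol/kg, with the grey band giving the range over the other 20 kidney libraries. Library 3 at 0.67 mmol/kg stands at 6640 CPM for adrenal cortex and 2000 CPM for adrenal medulla, above the band. It is also above the band for white fat, at 615 CPM. Vehicle library 1 stands at 140 CPM for podocytes, below the band. Vehicle library 2 at 274 CPM and 0.22 mmol/kg library 3 at 267 CPM lie just below the podocyte band, which starts at 276 CPM.

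The main comparison asked which genes differed between the low doses together and vehicle. None did at the threshold used. Of 14216 genes tested, edgeR called 0 (0%) at an adjusted p under 0.05, the smallest adjusted p was 0.465, and DESeq2 also called 0. At an unadjusted p under 0.05 there were 790 genes, 455 higher (3.2%) and 335 lower (2.36%), which is 5.56% of all genes tested. The CPM of all 6 low dose libraries lay above all 3 vehicle libraries for 136 genes (0.957%) and below them for 130 genes (0.914%). Leaving out vehicle library 1, 2 or 3 turned the count of 790 into 346, 567 or 1499. Leaving out library 1 or 3 at 0.67 mmol/kg gave 1396 or 507, and 0 genes were called in each of these fits. Without vehicle library 2 and the library with adrenal RNA together it was 385, also with 0 called. The estimates were narrow for most genes. Among the 11583 genes with a mean of at least 1 CPM, the 95% interval of the change lay within 2-fold in either direction for 94% and within 1.5-fold for 77.5%.

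**Figure D2:**
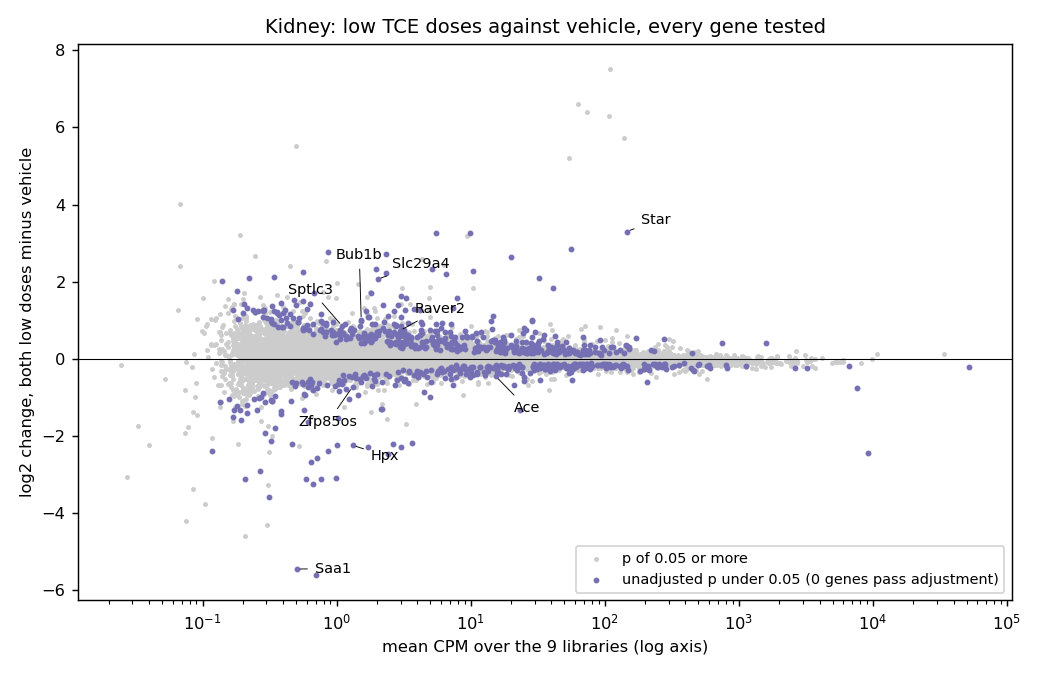
Log2 change of both low doses together minus vehicle for each of 14216 genes against its mean CPM over the 9 libraries (log axis), with genes at an unadjusted p under 0.05 in purple. The changes centre on 0, 0 genes pass the adjustment, and Star at the upper right is the gene at 1280 CPM in the library with adrenal RNA.

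The 5 genes in each direction with the smallest p did not pass. Raver2, which encodes an RNA-binding protein (chromosome 4, 101069038 to 101152370), was at 1.53, 2.34 and 2.29 CPM in the vehicle libraries, at 3.6, 3.26 and 2.84 CPM at 0.22 mmol/kg and at 3.04, 3.79 and 3.95 CPM at 0.67 mmol/kg. The groups did not overlap, and the log2 change was 0.73 ± 0.14 (SE) with an edgeR adjusted p of 0.465. The 2 kidney libraries of the vehicle group of tetrachloroethylene (PCE), the other solvent of the series, which received the same vehicle, had 2.96 and 3.25 CPM of Raver2, inside the range of the low dose libraries. Sptlc3, a subunit of the serine palmitoyltransferase that starts sphingolipid synthesis (chromosome 2, 139493913 to 139637061), was at 0.658, 0.564 and 0.908 CPM in vehicle, at 1.31, 1.35 and 0.909 CPM at 0.22 and at 1.3, 1.51 and 1.4 CPM at 0.67 mmol/kg. Its change was 0.85 ± 0.20 with an edgeR adjusted p of 0.595, and the PCE vehicle libraries, at 1.37 and 1.38 CPM, were again like the low dose libraries. Sptlc3 was among the 25 genes called at 6 mmol/kg TCE, with a change of 1.22 ± 0.22 and an edgeR adjusted p of 0.0202. That comparison shares the vehicle libraries with this one.

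The other genes with the smallest p on the higher side were Bub1b, Arhgap28 and Wfdc16. Bub1b, a kinase of the spindle checkpoint, had 0.877 to 0.967 CPM in vehicle and 1.01 to 2.52 CPM in the low dose libraries (log2 change 1.00 ± 0.27), with 1.19 and 1.69 CPM in the PCE vehicle libraries. Arhgap28 had 2.32 to 4.98 CPM in vehicle and 3.93 to 7.17 CPM at the low doses, and 4.42 and 5.19 CPM in PCE vehicle. Wfdc16, which encodes a protein with a WAP domain, had 1.45 to 2.06 CPM against 2.55 to 4.32 CPM, and 2.45 and 2.88 CPM in PCE vehicle. The genes with the smallest p on the lower side included Ace, the angiotensin-converting enzyme of the brush border, at 18.5, 16.6 and 20.8 CPM in vehicle and 11 to 15.6 CPM at the low doses (log2 change -0.45 ± 0.13), with 14.6 and 15.3 CPM in PCE vehicle. Plek2, a relative of pleckstrin, had 5.41 to 7.76 CPM against 3.32 to 5.91 CPM, and 3.98 and 4.3 CPM in PCE vehicle. The antisense genes Zfp85os, at 1.65 to 1.89 against 0.917 to 1.28 CPM, and Map2k3os, at 2.43 to 2.54 against 1.31 to 1.96 CPM, have values that cannot be told from those of their partner genes without the strand setting. Hpx, the heme-binding hemopexin made in liver, was at 0.438, 6.25 and 1.45 CPM in vehicle and 0.263 to 1.38 CPM at the low doses. Zfp85os had an edgeR adjusted p of 0.536 and the other 7 of these 8 genes one of 0.846. The PCE vehicle libraries lay apart from the TCE vehicle libraries, on the side of the low doses, for 8 of the 10 genes. These genes were chosen by their difference from the same TCE vehicle libraries, which favours such a position. The share over all genes was not counted, so nothing is concluded from this count. For Arhgap28 and Hpx they overlapped the TCE vehicle libraries.

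The vehicle groups of TCE and PCE were also compared with each other, as groups with the same treatment. Of 14216 genes edgeR called 0 (0%) and DESeq2 0 between them, with 1158 at an unadjusted p under 0.05. Of these, 584 (4.11%) were higher in the TCE vehicle group and 574 (4.04%) lower. For Raver2 the TCE vehicle group was lower than the PCE vehicle group with a log2 difference of -0.59, and for Sptlc3 with one of -0.94 (edgeR adjusted p = 0.466 for both). The difference between the low dose response to TCE and that to PCE, each against its own vehicle, gave 0 calls (0%) in edgeR and 0 in DESeq2. At an unadjusted p under 0.05 it gave 687 genes higher (4.83%) and 467 lower (3.29%).

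Genes of solvent metabolism gave no call. Cyp2e1, the cytochrome P450 that oxidises TCE, was at 3630, 3850 and 2770 CPM in vehicle and at 3130 to 3850 CPM in the low dose libraries, and the 95% interval of its log2 change ran from -0.27 to 0.32. Of the 42 genes of oxidation, glutathione conjugation and mercapturate formation that were tested, 0 were called. At an unadjusted p under 0.05, 2 were higher and 4 lower, beside 3.2% and 2.36% of all genes. The median log2 change was -0.02, where the median of all genes was 0.00. Ggt1, the γ-glutamyl transferase of the brush border, had 3200, 3080 and 2510 CPM in vehicle, 2500 to 2860 CPM at 0.22 and 2050 to 2690 CPM at 0.67 mmol/kg. Its log2 change was -0.24 ± 0.09 with an edgeR adjusted p of 0.846, and the groups overlapped. Acy1, an aminoacylase, had the smallest p of the list, at 19.6, 15.6 and 20.1 CPM in vehicle and 10.8 to 16.6 CPM at the low doses (log2 change -0.34 ± 0.12, edgeR adjusted p = 0.846). The glutathione transferases Gsta1 and Gsta2, chosen after their values were seen, had log2 changes of 0.70 ± 0.32 and 0.58 ± 0.25 (edgeR adjusted p = 0.846 for both). Their lowest library was vehicle library 1, at 5.74 and 15.1 CPM.

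PPARα targets, genes of fatty acid oxidation known to respond to TCE metabolites in rodents, did not pass at the low doses. Cyp4a14, a fatty acid hydroxylase, was at 11.7, 17.1 and 9.37 CPM in vehicle, at 14.4, 6.64 and 8.73 CPM at 0.22 and at 27.4, 12.6 and 14 CPM at 0.67 mmol/kg, so the groups overlapped at both doses. Its log2 change was 0.07 ± 0.64, with a 95% interval from -1.26 to 1.40, and its sign turned with single libraries. At 6 mmol/kg the same gene was at 80.4 to 173 CPM, a log2 change of 3.19 against the same vehicle libraries with an edgeR adjusted p of 0.0821. Acot1, an acyl-CoA thioesterase, had 94 to 104 CPM in vehicle, 70.2 to 88.6 CPM at 0.22 and 67 to 124 CPM at 0.67 mmol/kg. Over the 50 tested genes of this list 0 were called. At an unadjusted p under 0.05, 0 were higher and 2 lower, beside 3.2% and 2.36% of all genes. The median log2 change of the 50 was -0.06. Creb3l3, a transcription factor that works with PPARα, had the smallest p among them, at 0.263 to 0.846 CPM in vehicle and 0.075 to 0.328 CPM at the low doses.

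Stress and injury genes gave 0 calls, and counts of these lists are at an unadjusted p under 0.05. At that threshold 3.2% of all genes were higher and 2.36% lower in the main comparison. In the main comparison the NRF2 and oxidative stress list had 0 of 28 genes in either direction (median log2 change -0.07), the heat shock list 0 of 23 (median -0.03), the cholesterol synthesis list 0 of 23 (median -0.11) and the ER stress and ATF4 list 1 higher of 35 (median -0.02). The p53 target list had 2 of 24 higher (median 0.05) and the tubular injury and repair list 1 of 28 lower (median -0.05). Nqo1, an NRF2 target, was at 45.6 to 60.5 CPM in vehicle and 35.3 to 52.3 CPM at the low doses. Havcr1, the injury marker KIM-1 of the proximal tubule, was at 6.93, 2.62 and 4.21 CPM in vehicle and 2.33 to 3.44 CPM at the low doses, so its highest value was in a vehicle library. Lcn2, another injury marker, was likewise highest in vehicle library 1, at 4.74 CPM, with 2.9 and 2.91 CPM in the other vehicle libraries and 1.08 to 2.52 CPM at the low doses (log2 change -1.30 ± 0.60, edgeR adjusted p = 0.846). Cdkn1a, the p53 target p21, was at 0.763 to 1.25 CPM in vehicle, 0.655 to 1.38 CPM at 0.22 and 1.31 to 2.07 CPM at 0.67 mmol/kg. Pmaip1, which encodes the cell death protein Noxa, had the smallest p of its list and 8.42, 16.2 and 16.2 CPM in vehicle against 16.9 to 24.2 CPM at the low doses.

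Genes of DNA replication and cell cycle held more small p-values than most lists, though 0 of 31 were called. In the main comparison 7 of 31 were higher and 0 lower at an unadjusted p under 0.05, beside 3.2% of all genes, and their median log2 change was 0.39. The count was larger at 0.22 mmol/kg, where 14 of 31 were higher (2.82% of all genes were, and 2.3% were lower) with a median of 0.58. At 0.67 mmol/kg 2 of 31 were higher, beside 7.53% of all genes, with a median of 0.24. The direct difference between the doses put 7 of 31 lower at 0.67 mmol/kg, beside 6.38% of all genes, and this became 3 without library 1 at 0.22 and 2 without library 1 at 0.67 mmol/kg. Mki67, a marker of cycling cells, was at 4.78, 6 and 8.57 CPM in vehicle, at 19, 13.2 and 10.2 CPM at 0.22 and at 5.1, 13.4 and 10 CPM at 0.67 mmol/kg. Pcna, the clamp of the replication fork, was at 43.1, 44 and 47.6 CPM in vehicle, at 54.2, 54.6 and 56.4 CPM at 0.22 and at 47.4, 51.4 and 50 CPM at 0.67 mmol/kg. The 0.22 mmol/kg libraries lay above the vehicle libraries for both genes, and the 0.67 mmol/kg libraries overlapped vehicle. Mki67, Pcna and the other genes in the plot of cell cycle genes, except Bub1b, were picked with their values in view.

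The PCE vehicle libraries were set beside the same genes. Mki67 was at 9.84 and 15.3 CPM and Pcna at 51.7 and 57.7 CPM in them, above every TCE vehicle library for both genes. Counts of higher or lower genes in this paragraph are at an unadjusted p under 0.05. Between the vehicle groups, 11 of the 31 genes of DNA replication and cell cycle were lower in the TCE vehicle group. This stood beside 4.04% of all genes. The median log2 difference was -0.60, with 2 of 31 differences above 0. With the vehicle groups of both solvents pooled as the control, 1 of 30 was higher at the low doses and the median was 0.11. The count of 7 also became 2 without vehicle library 1 or without vehicle library 2, 3 without 0.22 mmol/kg library 1, and 2 and 3 without libraries 2 and 3 at 0.67 mmol/kg. It was 2 when length and GC slopes were covariates. It was 11 without library 1 at 0.67 mmol/kg, 10 without vehicle library 3 and 13 of 30 with the 9 libraries fitted alone. At 0.22 mmol/kg the count of 14 became 5 and 8 without vehicle libraries 1 and 2. It was 6 without library 1 at that dose and 4 of 30 with pooled vehicle groups. Without libraries 2 and 3 at that dose it was 12 and 15, and without vehicle library 3 it was 17. With length and GC slopes as covariates, or with the replicate numbers as a block, it was 15. With the 9 libraries fitted alone it was 17 of 30. In the difference between the low dose responses to TCE and PCE, 21 of 31 were higher for TCE, beside 4.83% of all genes. The median was 0.88, but each response there is taken against its own vehicle group.

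**Figure D3:**
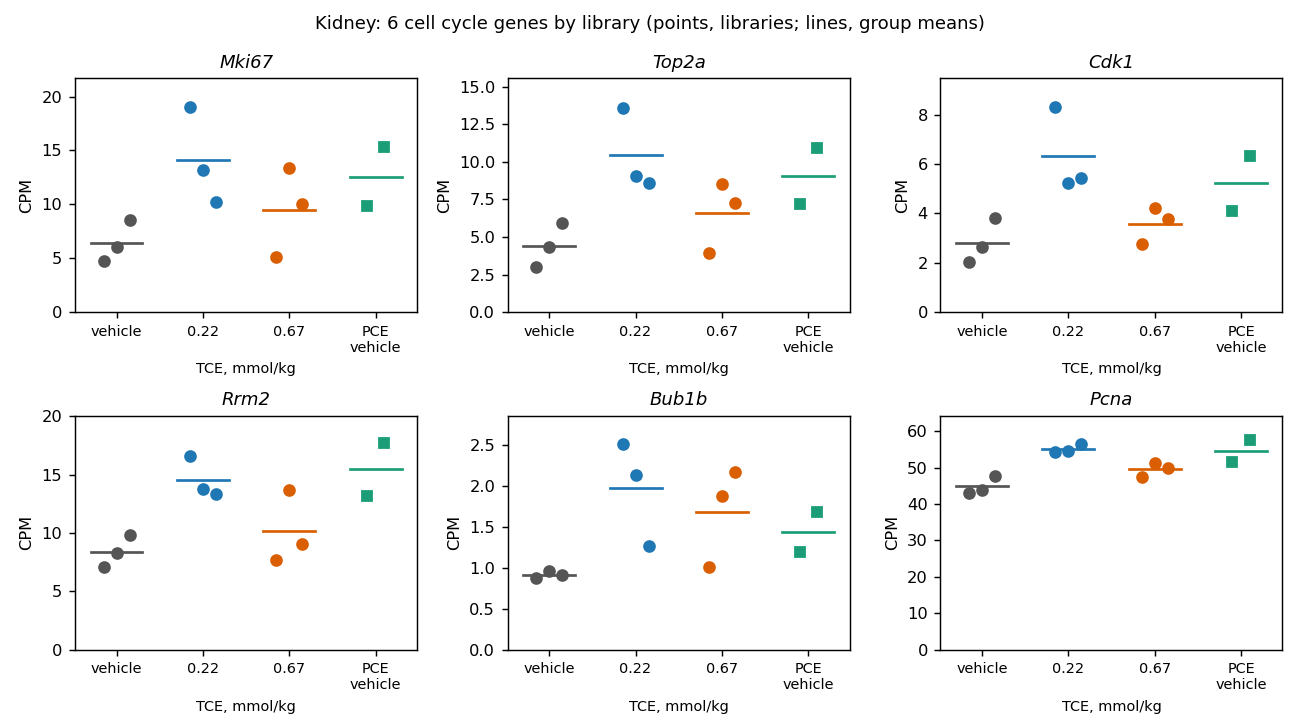
CPM of 6 cell cycle genes in each library of the 3 TCE groups (circles) and of the PCE vehicle group (green squares), with a line at each group mean and axes from 0. The 0.22 mmol/kg libraries lie above the TCE vehicle libraries in each panel, and the PCE vehicle libraries, such as 9.84 and 15.3 CPM for Mki67, lie above the TCE vehicle libraries too.

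Immediate early genes, which many stimuli induce within minutes, were counted at an unadjusted p under 0.05. In the main comparison 4 of 24 were higher, beside 3.2% of all genes, and 0 lower (median log2 change 0.36), with 0 called. Klf6, a transcription factor, had the smallest p, at 22, 25 and 26.3 CPM in vehicle and 25.9 to 36 CPM at the low doses (log2 change 0.37 ± 0.12, edgeR adjusted p = 0.846). At 0.67 mmol/kg 7 of 24 were higher, beside 7.53% of all genes, with 3 of 24 when vehicle library 1 was left out and 0 of 24 when length and GC slopes were covariates. Library 3, the one with adrenal RNA, held high values of some of them. Nr4a1, an orphan nuclear receptor that the adrenal cortex also makes, was at 206 CPM in it and at 7.85 to 41.2 CPM in the other 8. Without that library 0 of 24 were higher at 0.67 mmol/kg and 2 of 24 in the main comparison, and without vehicle libraries 1 and 2 the main comparison had 1 and 2 of 24. It had 10 of 24 without library 1 at 0.67 mmol/kg, and 10 of 24 with pooled vehicle groups. At the same threshold, the list of circadian clock genes had 2 of 20 higher and 1 lower in the main comparison. This stood beside 3.2% and 2.36% of all genes. The clock output gene Dbp was at 5.56 to 12.8 CPM in vehicle and 6.15 to 21.9 CPM at the low doses, and Arntl, which encodes the clock activator BMAL1, at 4.47 to 5.96 and 2.16 to 6.68 CPM.

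The remaining function lists gave 0 calls in the main comparison. Beside their counts stand the shares of all genes with all libraries, 3.2% higher and 2.36% lower at an unadjusted p under 0.05. At an unadjusted p under 0.05, the glucocorticoid and metallothionein list had 3 of 26 higher and 2 lower, the interferon-stimulated list 1 of 31 higher and the lipogenesis list 1 of 26 lower. The list of gluconeogenesis and proximal tubule metabolism had 2 of 24 higher, led by Slc5a2, the glucose transporter SGLT2, at 486, 699 and 655 CPM in vehicle and 754 to 934 CPM at the low doses, with 1040 and 1090 CPM in the PCE vehicle libraries. The organic ion and solute transporters had 1 of 36 higher and 2 lower, the hypoxia and glycolysis list 1 of 24 lower, the sodium, water and calcium list 3 of 37 lower and the cytosolic ribosomal proteins 1 of 72 lower. Respiratory chain subunits had 3 of 44 lower, and the log2 change of all 44 was below 0 with a median of -0.09. This was not particular to them, as the log2 change was above 0 for only 1 of the 72 ribosomal protein genes (median -0.06). The median of all genes was 0.00. Of the acute phase and coagulation genes 2 of 27 were higher and 4 lower (median -0.06). Without vehicle library 2 they had 3 higher and 2 lower with the median turned to 0.22, and without vehicle library 1 they had 0 higher and 4 lower. The median also turned above 0 without library 1 or 3 at 0.22 or library 1 at 0.67 mmol/kg (0.04 to 0.07) and with pooled vehicle groups (0.20). Saa1, serum amyloid A, was at 0.219, 3.91 and 0.218 CPM in vehicle and at 0 to 0.0405 CPM at the low doses. Its highest value was in vehicle library 2, the library highest in albumin, and the part of liver RNA in these values was not tested.

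In several lists the gene with the smallest p was abundant and differed little. Catalase (Cat), which breaks down hydrogen peroxide, was at 1520 to 1630 CPM in vehicle and 1270 to 1530 CPM at the low doses. Ndufb5, a subunit of complex I, was at 238 to 271 CPM in vehicle and 212 to 247 CPM at the low doses. Elovl7, a fatty acid elongase, was at 143 to 154 against 119 to 138 CPM, and Insig1, which holds back cholesterol synthesis, at 64.9 to 78.5 against 45.5 to 78 CPM. For Elovl7 the groups did not overlap, and the log2 change was -0.19 ± 0.06. The others were at lower levels. Slc22a29, a member of the organic ion transporter family, was at 2.98 to 4.72 CPM in vehicle and 4.29 to 9.46 CPM at the low doses. Dnajb4, a co-chaperone, was at 1.8 to 2.8 against 2.82 to 4.15 CPM. Rora, a nuclear receptor of the clock, was at 0.614 to 1.05 CPM in vehicle and 1.01 to 1.98 CPM at the low doses. Pfkp, a phosphofructokinase of glycolysis, was at 8.3 to 12.1 against 6.64 to 8.5 CPM. Tat, a tyrosine aminotransferase abundant in liver, was at 0, 2.01 and 0.69 CPM in vehicle and at most 0.567 CPM at the low doses, again highest in vehicle library 2. Rpl26, a ribosomal protein gene with near-identical copies, was at 1.09 to 1.69 against 0.6 to 1.02 CPM. All 10 had an edgeR adjusted p of 0.846.

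Among markers of cell types, 0 were called. Counts in this paragraph are at an unadjusted p under 0.05. With all libraries, 3.2% of all genes were higher and 2.36% lower at that threshold. Podocyte genes had 6 of 9 higher at the low doses (median log2 change 0.54) beside 3.2% of all genes. Nphs1, nephrin of the filtration slit, was at 9.69, 22.2 and 32.2 CPM in vehicle, at 34.9, 39.1 and 23.1 CPM at 0.22 and at 33.8, 39.9 and 36.6 CPM at 0.67 mmol/kg. Vehicle library 1 was the lowest. Without it 0 of 9 were higher at that threshold, though all 9 log2 changes stayed above 0, with a median of 0.24. With pooled vehicle groups 2 of 9 were higher. Liver genes had 7 of 11 lower (median -1.24), beside 2.36% of all genes. Without vehicle library 2 they had 0 of 10 lower and a median of -0.48. The S1 and S2 markers of the proximal tubule had 3 of 11 higher, 0 of 11 without vehicle library 1, and the S3 markers 0 of 12 in either direction. The thick ascending limb and the collecting duct principal cell lists had 1 lower each, of 10 and of 9, and the endothelium list 1 of 11 higher. The thin limb and papilla, distal convoluted tubule, intercalated cell, fibroblast and smooth muscle, macrophage, lymphocyte, neutrophil, red blood cell, urothelium, skeletal muscle, brown fat and white fat lists had 0 in either direction. The adrenal cortex list had 4 of 14 higher and the adrenal medulla list 0 of 7, and without library 3 at 0.67 mmol/kg the adrenal cortex list had 0 of 14.

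The doses were also compared with vehicle one at a time. At 0.22 mmol/kg edgeR called 0 genes (0%) and DESeq2 0, with 728 at an unadjusted p under 0.05. At 0.67 mmol/kg edgeR called 1 gene (0.00703%), Slc29a4, which rose. It encodes the plasma membrane monoamine transporter (chromosome 5, 142692478 to 142722490). Slc29a4 was at 0.219, 0.322 and 0.4 CPM in vehicle, at 0.328, 0.3 and 0.364 CPM at 0.22 and at 8.42, 0.302 and 7.59 CPM at 0.67 mmol/kg. Its level was high in libraries 1 and 3 at 0.67 mmol/kg, of which library 3 held adrenal RNA and library 1 did not, and library 2 of that group lay within the vehicle range. The other 20 kidney libraries had 0.2 to 0.384 CPM, including those at 2 and 6 mmol/kg TCE. The log2 change was 4.08 ± 0.63 with an edgeR adjusted p of 0.0196. The call was lost without library 3 at 0.67 mmol/kg (edgeR adjusted p = 0.145), and without any 1 of the 3 vehicle libraries (edgeR adjusted p = 0.0791 to 0.435). It was also lost with the replicate numbers as a block (edgeR adjusted p = 0.0526), with length and GC slopes (edgeR adjusted p = 0.448) and with the 9 libraries fitted alone (edgeR adjusted p = 0.343).

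At 0.67 mmol/kg more genes had a small p than at the other dose, 1071 higher (7.53%) and 691 lower (4.86%), and DESeq2 called 32 genes, 29 higher and 3 lower. The library with adrenal RNA was the highest of the 9 for 20 of these 32, and DESeq2 gave a p to 6 of the 14 tested adrenal cortex genes only. Without that library DESeq2 called 2 genes, Slc29a4 and Gsdmc3, which was at 1.23, 0 and 0.727 CPM in vehicle and at 0, 0 and 0.0319 CPM at 0.67 mmol/kg, and the edgeR count at an unadjusted p under 0.05 went from 1762 to 802 with 0 called. Leaving out library 1 at 0.67 mmol/kg, edgeR called 200 genes, of which 125 were highest in library 3, and without library 2 it called 54, of which 53 were highest in library 3 and 12 were on the adrenal lists. The slope of log2 CPM per doubling of gene length was 0.009, 0.073 and 0.083 in the libraries at 0.67 mmol/kg and -0.029, -0.068 and 0.020 in the vehicle libraries. The groups overlap, and the difference in slope was not tested. With the length and GC slopes of each library as covariates, 616 genes had an unadjusted p under 0.05 and 0 were called.

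**Figure D4:**
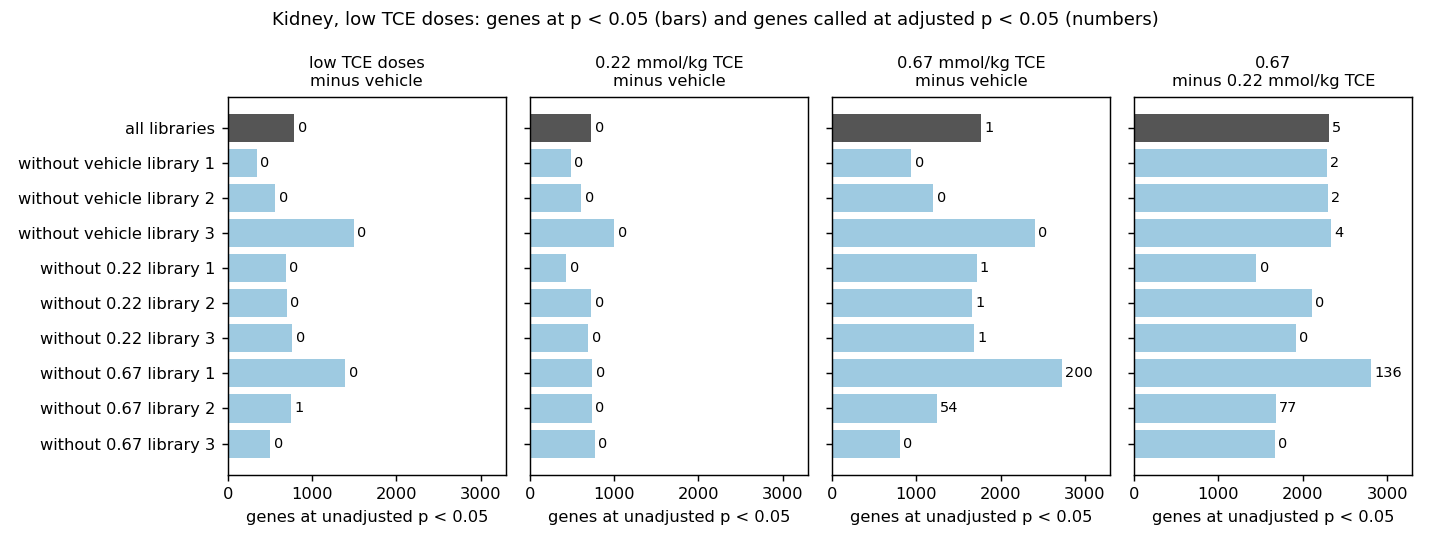
Number of genes at an unadjusted p under 0.05 (bars) and number called at an adjusted p under 0.05 (printed beside each bar) by edgeR in 4 comparisons, with all libraries and with each of the 9 libraries left out. The count at 0.67 mmol/kg against vehicle goes from 1762 to 802 without library 3 of that dose and to 2723, with 200 called, without library 1.

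Groups of genes at 0.67 mmol/kg are given with and without library 3, with counts at an unadjusted p under 0.05. Respiratory chain subunits had 11 of 44 lower (median log2 change -0.16) beside 4.86% of all genes, 2 of 44 without that library 6 and 1 of 44 without vehicle libraries 1 and 2, and 4 of 44 without library 2 at that dose. Without vehicle library 3 or library 1 at that dose they had 21 and 22 of 44. With length and GC slopes as covariates their median was 0.02, on the other side of 0. Lipogenesis genes had 5 of 26 higher, beside 7.53% of all genes, and 1 lower (median 0.25). They had 1 of 26 higher without library 3 and 9 of 26 without library 1 at that dose. With length and GC slopes they had 1 higher and 1 lower, and the median turned to -0.04. The S1 and S2 markers of the proximal tubule had 6 of 11 higher (median 0.44), 4 and 3 of 11 without libraries 3 and 2 at that dose, and 1 of 11 without vehicle library 1 or with pooled vehicle groups. Slc3a2, the heavy chain of amino acid transporters such as the cystine carrier, was at 15.9, 21.4 and 20.5 CPM in vehicle, at 19.9, 22.1 and 19.7 CPM at 0.22 and at 29.7, 35.4 and 33.8 CPM at 0.67 mmol/kg. The 0.67 mmol/kg libraries did not overlap the other groups, with a log2 change of 0.78 (edgeR adjusted p = 0.162, DESeq2 adjusted p = 0.0133). DESeq2 without library 3 did not call Slc3a2 against vehicle. The PCE vehicle libraries, at 32.1 and 34.8 CPM, lay inside the 0.67 mmol/kg range.

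The difference between the doses was tested directly and called 5 genes (0.0352%), with 1402 higher (9.86%) and 907 lower (6.38%) at 0.67 mmol/kg at an unadjusted p under 0.05. Slc29a4 was higher at 0.67 mmol/kg by 4.02 ± 0.62 (edgeR adjusted p = 0.0185). Ctif, which encodes a translation initiation factor that works with the nuclear cap-binding complex (chromosome 18, 75431205 to 75697696), was at 17.9, 18.7 and 19.4 CPM at 0.22 and at 26.1, 25.3 and 26.2 CPM at 0.67 mmol/kg, with 23.8, 23.3 and 21.7 CPM in vehicle. Its difference was 0.47 ± 0.08 (edgeR adjusted p = 0.0397). Zc3h4, a zinc finger protein that limits noncoding transcription (chromosome 7, 16399583 to 16437696), was at 47.7, 49.4 and 46.8 CPM at 0.22 and at 67.4, 61.4 and 58.6 CPM at 0.67 mmol/kg, with 51.8 to 55.7 CPM in vehicle and a difference of 0.38 ± 0.07 (edgeR adjusted p = 0.042). For Ctif and Zc3h4 the vehicle libraries lay between the doses.

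The other genes ran the opposite way. Fbxl2, the substrate-binding subunit of a ubiquitin ligase (chromosome 9, 113958557 to 114026803), was at 17.1, 16.4 and 15.4 CPM at 0.22 and at 9.48, 11.3 and 9.72 CPM at 0.67 mmol/kg, with 12.5 to 14.5 CPM in vehicle. It was lower at 0.67 mmol/kg, with a difference of -0.68 ± 0.11 (edgeR adjusted p = 0.0248). Alkbh3, a dealkylase that repairs alkylated DNA and RNA (chromosome 2, 93980624 to 94010824), was at 37.7, 38.7 and 34.7 CPM at 0.22 and at 27.8, 28.3 and 26.1 CPM at 0.67 mmol/kg, with 30.1 to 32.7 CPM in vehicle and a difference of -0.44 ± 0.08 (edgeR adjusted p = 0.0397). Pooled against vehicle, the doses gave these 4 genes log2 changes between -0.06 and 0.02. All 5 calls were lost when library 3 at 0.67 mmol/kg or any 1 of the 3 libraries at 0.22 mmol/kg was left out, and with length and GC slopes or the 9 libraries fitted alone, though each gene kept its direction in every setting run. Without libraries 1 and 2 at 0.67 mmol/kg the count was 136 and 77, of which 89 and 69 genes were highest in library 3, and without vehicle libraries 1 and 2 it was 2 each time. DESeq2 called 152 genes between the doses with all libraries and 20 without library 3, among them all 5.

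**Figure D5:**
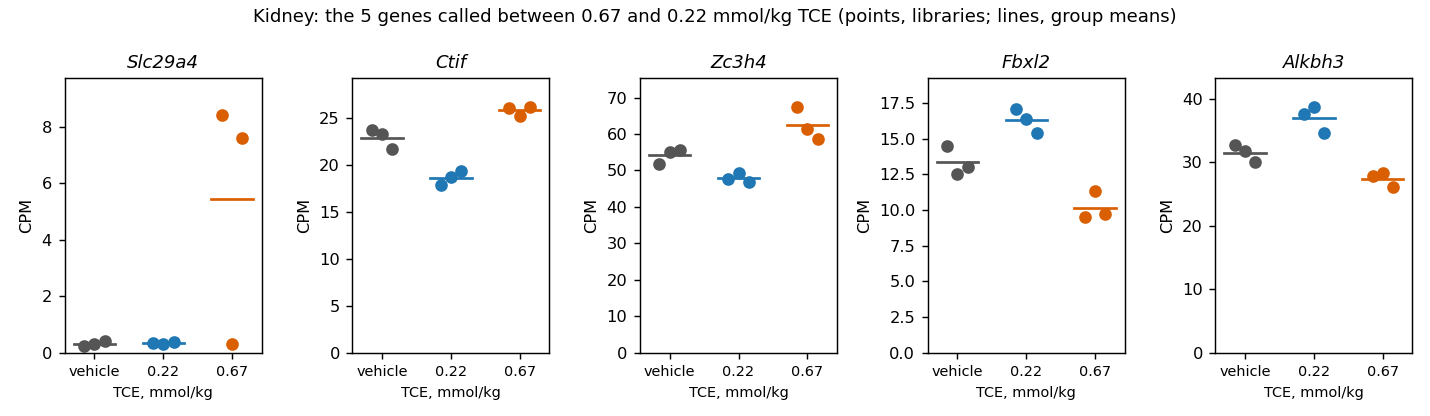
CPM of the 5 genes called between 0.67 and 0.22 mmol/kg TCE in each of the 9 libraries (points) with group means (lines) and axes from 0. Ctif, Zc3h4, Fbxl2 and Alkbh3 have vehicle libraries between the doses, and Slc29a4 is at 8.42 and 7.59 CPM in 2 libraries at 0.67 mmol/kg and at 0.4 CPM or less in the other 7.

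The ER stress and ATF4 list holds chaperones of the endoplasmic reticulum and genes of amino acid supply. Its median log2 difference, 0.67 minus 0.22 mmol/kg, was 0.35, with 0 genes called by edgeR and 2 by DESeq2 (Sesn2 and Slc3a2). At an unadjusted p under 0.05, 12 of 35 genes were higher at 0.67 mmol/kg and 0 lower, beside 9.86% and 6.38% of all genes. This count was 12 without library 3 at 0.67 mmol/kg, 7 without library 1 at 0.67 mmol/kg, 5 without library 1 at 0.22 mmol/kg and 4 with the length and GC slopes as covariates. Against vehicle, the list had 4 of 35 higher and 0 lower at 0.67 mmol/kg (median 0.16), beside 7.53% and 4.86% of all genes. At 0.22 mmol/kg it had 0 higher and 1 lower (median -0.16), so the 2 dose groups lay on opposite sides of vehicle by their medians. Sesn2, a stress-induced regulator of growth signalling, was at 60.3, 85.8 and 74.3 CPM in vehicle, at 53.2, 51.3 and 60 CPM at 0.22 and at 99.7, 83.6 and 70 CPM at 0.67 mmol/kg. The doses did not overlap for Sesn2. The vehicle library at 60.3 CPM lay just above the 0.22 mmol/kg libraries, and those at 85.8 and 74.3 CPM lay inside the 0.67 mmol/kg range. The difference was 0.62 ± 0.16 with an edgeR adjusted p of 0.107. DESeq2 called it with all libraries (DESeq2 adjusted p = 0.0246) and without library 3 (DESeq2 adjusted p = 0.0318). Slc7a5, a light chain partner of Slc3a2, was at 12.9 CPM in library 3 at 0.67 mmol/kg and at 2.37 to 2.98 CPM in the other 8. Sesn2 and Slc7a5 were picked with their values in view.

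The higher TCE doses are set beside the low doses here, with the same vehicle libraries in each comparison. At 2 mmol/kg edgeR called 0 genes and at 6 mmol/kg 25, of which 9 rose and 16 fell. The log2 changes of these 25 genes ran from -2.26 (Ifitm7) to 1.89 (Asns) at 6 mmol/kg and from -0.85 (Ifitm7) to 0.85 (Sptlc3 and Pole) at the low doses. Pole, the catalytic subunit of DNA polymerase ε, was at 1.45, 1.41 and 2.43 CPM in vehicle, at 4.09, 4.02 and 4.04 CPM at 0.22, at 1.78, 3.39 and 2.42 CPM at 0.67 and at 3.94 to 7.22 CPM at 6 mmol/kg. Its low dose change was 0.85 ± 0.27 (edgeR adjusted p = 0.846), and the PCE vehicle libraries were at 3.53 and 4.21 CPM. Slco3a1, an organic anion transporter, was at 245, 230 and 183 CPM in vehicle, 155 to 210 CPM at the low doses and 137 to 157 CPM at 6 mmol/kg, with log2 changes of -0.27 ± 0.10 and -0.60 (edgeR adjusted p = 0.846 and 0.0236). The fatty acid and amino acid genes Fabp1 and Asns differed from these in having a low dose change of the sign opposite to that at 6 mmol/kg. Fabp1, the liver-type fatty acid-binding protein and a PPARα target, was at 9.16, 21.7 and 8.61 CPM in vehicle, at 9.02 to 14.9 CPM at the low doses and at 44.2 to 55.2 CPM at 6 mmol/kg. Its log2 change was -0.21 ± 0.28 at the low doses and 1.87 at 6 mmol/kg (edgeR adjusted p = 0.0206). Slc22a7, an organic anion transporter of the proximal tubule, was at 498 to 724 CPM in vehicle, at 304 to 547 CPM at the low doses and at 257 to 272 CPM at 6 mmol/kg, with log2 changes of -0.38 ± 0.19 and -1.16 (edgeR adjusted p = 0.846 and 0.036). Asns, the asparagine synthetase induced by ATF4, was at 4.96 to 7.23 CPM in vehicle, 3.14 to 6.66 CPM at the low doses and 11.3 to 31 CPM at 6 mmol/kg. Its log2 change was -0.44 ± 0.29 at the low doses and 1.89 at 6 mmol/kg (edgeR adjusted p = 0.846 and 0.0211). Pole, Slco3a1, Fabp1, Slc22a7 and Asns were picked with their values in view.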

How the data were processed

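RNA of whole kidney was sequenced from TruSeq total RNA libraries on a HiSeq 2000, per the labels' protocols. The deposited table holds raw read counts per RefSeq transcript, with 1 column per library, per the file headers. The deposited columns at 0.22 and 0.67 mmol/kg were handled as estimated counts because a dose with a decimal heads each one. All their values were whole, and rounding left them as they were. Every kidney column, vehicle included, was rounded and fitted in the same way. Tools named in the submitters' processing notes, with no role stated, were TopHat2 2.0.10, HTSeq and CASAVA 1.8.2, with the build mm10. The annotation, filters and strand setting are not given in the sources used here. Lines for ambiguous reads (19.68 to 21.28% of each library) and for reads in no feature (21.52 to 25.3%), as HTSeq reports them, were left out. Levels of genes with shared isoforms, antisense partners or near-identical copies, such as Rpl26 among ribosomal proteins, are therefore uncertain.

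Counts of 33392 transcripts were summed to 24122 genes by symbol. Coordinates are 1-based, from the RefSeq gene table of GRCm38.p6. CPM uses TMM library sizes. Tests used edgeR 4.0.16 (R 4.3.3): TMM, filterByExpr, a robust quasi-likelihood fit of all 29 kidney libraries in 10 groups (14216 genes, common biological coefficient of variation 0.156) and two-sided F tests with Benjamini-Hochberg adjustment over all genes, called under 0.05. The low dose change is the mean of the coefficients at both doses minus vehicle. The SE was derived from the log2 change and its F statistic. The edgeR script was tested on simulated data. DESeq2 1.42.0 and other settings were alternatives. Within each group the libraries were not copies of each other (chi-square over degrees of freedom 17.7 to 134 per pair).

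The comparison, 21 function lists, 21 marker lists and alternatives were chosen with earlier results of these data known. Lists are described by counts and medians, without a list test. Genes named are, for the main comparison, the called genes or the 5 in each direction with the smallest p among genes averaging 1 CPM or more, leaving out predicted genes. Up to 3 called genes in each direction come from the other comparisons, and from each function list the gene with the smallest p, except 1 that is not reported here. Cyp4a14, Acot1, Cyp2e1, Cdkn1a, Havcr1, Nqo1, Dbp, Arntl and 6 adrenal genes are given whatever their result. Other named genes, such as Alb, Ggt1, Nphs1, Nr4a1, Gsdmc3 and those said to be picked with values in view, fall outside these rules. Liver libraries and other kidney doses were not analysed here, except where given as context.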

Additional observations from a re-analysis of the deposited data

Results flagged for a closer look

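Within the 6 low dose libraries, a library was marked where its gap to the nearest of the others exceeded 0.625 of the whole range, Dixon's limit at 95% for 6 values. Chance marks about 1 in 20 groups, and 69 were looked at. Library 3 at 0.67 mmol/kg was marked for the adrenal genes Star (1280 CPM), Cyp11a1 (979), Cyp11b1 (566), Cyp21a1 (1250), Th (106) and Dbh (87.6 CPM), for the summed adrenal cortex markers (6640 CPM) and for the summed adrenal medulla markers (2000 CPM). The other 5 low dose libraries had at most 4.62 CPM of any of these 6 genes, and 654 to 702 and 331 to 425 CPM of the sums.

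Library 1 at 0.67 mmol/kg was marked for the fatty acid hydroxylase Cyp4a14, at 27.4 CPM where the others had 6.64 to 14.4 CPM. Library 1 at 0.22 mmol/kg was marked for the injury marker Lcn2, at 2.52 CPM against 1.08 to 1.54 CPM, and for the summed urothelium markers, at 6.49 CPM against 1.5 to 2.47 CPM. Library 3 at 0.22 mmol/kg was marked on the low side for Sptlc3, at 0.909 CPM against 1.3 to 1.51 CPM, and for Saa1, at 0 against 0.0319 to 0.0405 CPM, where each of the others held 1 read.

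The change at 0.67 mmol/kg differed from that at 0.22 mmol/kg by a test of the difference in edgeR for 5 genes. The log2 differences were 4.02 for Slc29a4 (adjusted p = 0.0185), -0.68 for Fbxl2 (adjusted p = 0.0248), 0.47 for Ctif (adjusted p = 0.0397), -0.44 for Alkbh3 (adjusted p = 0.0397) and 0.38 for Zc3h4 (adjusted p = 0.042). Both changes use the same vehicle libraries, which cancel in the difference.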

How the results depend on the processing

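The main comparison had 0 called genes under each setting run, except 1 (Slc29a4) without library 2 at 0.67 mmol/kg, and leaving out single libraries gave 0 to 1. At 0.22 mmol/kg the count was 0 throughout. At 0.67 mmol/kg against vehicle the count of 1 became 32 in DESeq2, 35 with pooled vehicle groups, 2 in DESeq2 without the library with adrenal RNA, and 0 with the replicate block, with length and GC slopes, with the 9 libraries fitted alone and with that library and vehicle library 2 both out. Leaving out single libraries gave 0 to 200. Between the doses the count of 5 became 2 without a filter on low counts, 152 in DESeq2, 20 in DESeq2 without the library with adrenal RNA, 3 with the replicate block, 0 with length and GC slopes and 0 with the 9 libraries alone, and 0 to 136 without single libraries. The difference from the low dose response to PCE had 0 to 1 called without single libraries, and the vehicle groups had 0 throughout. The settings with DESeq2 without a library and with 2 libraries out were chosen after seeing the data.

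Of the values of single genes under an alternative, 720 kept their direction and side of the threshold, 50 lost their call and 9 changed sign. Only values called in the main fit could lose a call, and most of the values were not called there. Cyp4a14, at 0.07, became -0.00 with the replicate block and -0.14 to 0.35 without single libraries, below 0 without vehicle library 3 or without library 1 of either dose. Cyp2e1 ran from -0.11 (without vehicle library 3) to 0.12, and Arntl from -0.31 to 0.03 (without 0.22 mmol/kg library 1). Star ran from -0.16 (without 0.67 mmol/kg library 3) to 3.60, and was -0.16 in DESeq2 without that library and -0.15 without it and vehicle library 2. The cause was not tested, except that Star's high value is in the library left out.

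The replicate numbers share only a number: over 9 pairs the correlation of deviations ran from -0.14 to 0.18, 4 pairs were over 0.1, and 4 of 9 libraries correlated best with their own number. With 3 libraries a group, the 95% interval of the main comparison lay within 1.5-fold for 63.5% of the genes tested, and the median SE of the log2 change was 0.14. The call of Slc29a4 rests on 2 libraries, at 8.42 and 7.59 CPM.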
